A study of Mus musculus with 6 samples.

Results

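High-mitochondrial barcodes are droplet barcodes in which transcripts of the mitochondrial genome make up a large share of the captured RNA. They were taken from 3 Drop-seq libraries of mouse brain myeloid cells. In Drop-seq, RNA of 1 droplet shares a barcode, each molecule carries its own short tag (the unique molecular identifier, UMI), and the 3′ part is read. A barcode was counted as high-mitochondrial when it had 400 or more detected genes and at least 10% of its UMIs on genes with the mt- prefix. There were 2264 such barcodes among the 3000 of the 3 libraries, out of 6000 in the whole series. Another 592 barcodes of the same 3 libraries had 400 or more genes and lay under 10% (low-mitochondrial barcodes), and 144 had fewer genes and entered no test. The barcodes were chosen by their gene number and mitochondrial share, so both measures are described here without a test. The tests concern nuclear-coded genes only, whose levels are given as CPM (UMIs of the gene over all nuclear-coded UMIs, scaled to 1e6).

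The first library, called naive 2, came from 1 brain of an unmodified female C57BL/6 mouse without tumour. The second came from 2 pooled brains of Cx3cr1+/- C57BL/6 females and the third from 2 pooled brains of Cx3cr1-/- C57BL/6 females, called heterozygous and null below. Mice of both Cx3cr1 genotypes carried established brain metastases 2 to 3 weeks after E0771 carcinoma cells had been injected into the heart, and all mice were 2 to 3 months old. Myeloid cells were enriched from perfused, papain-digested brains by a Percoll gradient and Cd11b-coated magnetic beads, and all 3 libraries were read on a NextSeq 500. The name of the deposited table of naive 2 gives the metastasis group instead, so it is the library labelled naive throughout. Each condition has 1 library, so differences between the conditions have no test. The comparison of the barcode classes was made within each library and tested over the 3 libraries.

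Droplet barcodes of cells whose outer membrane has leaked are commonly recognised by a high mitochondrial share, because cytosolic mRNA escapes more easily than RNA held inside mitochondria. Microglia are the resident macrophages of the brain. They are recognised by surface receptors such as P2ry12, Tmem119 and Cx3cr1 and by abundant secreted and lysosomal products such as Cst3 and the C1q chains. They also switch on immediate-early genes and chemokines readily when tissue is dissociated. Which of these transcripts held a larger or a smaller share of the nuclear-coded RNA in high-mitochondrial barcodes is the question addressed below. Whether these barcodes came from leaked cells was not tested.

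High-mitochondrial barcodes were the majority in each of the 3 libraries and a minority elsewhere. Among barcodes with 400 or more genes they made up 79.1% in naive 2 (687 barcodes, exact Clopper-Pearson 95% interval 76.3 to 81.8), 74.8% in heterozygous (746, 72.0 to 77.5) and 83.9% in null (831, 81.4 to 86.1). Naive 1 had a share of 26.8%. The share was 1.00% for the metastasis 1 library and 1.22% for metastasis 2, which held only 82 barcodes of 400 or more genes. Intervals cover counting error only. The median mitochondrial share of the high-mitochondrial barcodes was 20.9% in naive 2, 22.96% in heterozygous and 20.7% in null, against 4.63%, 5.91% and 6.18% in the low-mitochondrial barcodes. No barcode of the 3 libraries passed 43.4%. Just under the limit, at 9 to 10%, lay 11, 33 and 19 barcodes with a median of 1741, 3215 and 3100 UMIs, and just over it, at 10 to 11%, lay 12, 20 and 13 with 1240, 2760.5 and 1644.

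**Figure D1:**
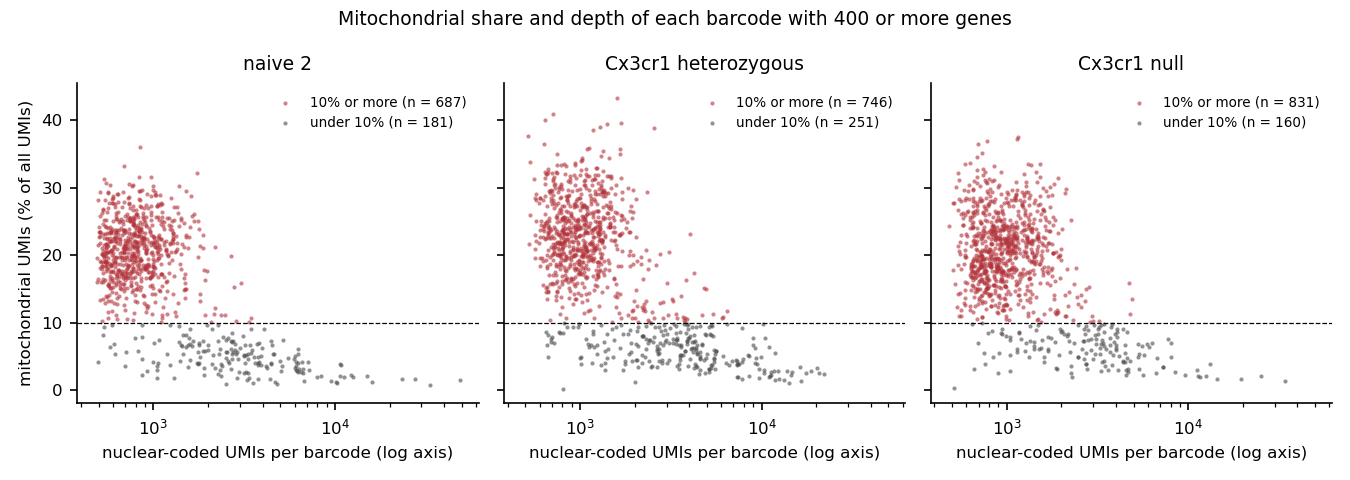
Each point is a barcode with 400 or more genes, by its nuclear-coded UMIs (horizontal, log axis) and its mitochondrial share in percent (vertical), in naive 2, heterozygous and null; the dashed line is the limit of 10%. The 687, 746 and 831 high-mitochondrial barcodes form a compact cloud at low depth, and the low-mitochondrial barcodes spread to the right of it.

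A single transcript set the mitochondrial share. mt-Rnr2, the large ribosomal RNA of the mitochondrion, held 98.7%, 98.4% and 98.7% of the mitochondrial UMIs of the high-mitochondrial barcodes in naive 2, heterozygous and null, and 86.2%, 90.8% and 90.2% of those of the low-mitochondrial barcodes. Counted on mt-Rnr2 alone, 679, 739 and 828 barcodes would have passed the limit. Counted on all the other mitochondrial genes, 0, 1 and 0 would have. On the CPM scale, mt-Rnr2 stood at 259761 against 33063 in naive 2, 282591 against 48070 in heterozygous and 263367 against 48076 in null. The other mitochondrial ribosomal RNA, mt-Rnr1, was far less abundant and also higher, at 411 against 185, 459 against 157 and 323 against 141. The protein-coding mitochondrial transcripts went the other way on the same scale, at 2959 against 5089, 4109 against 4685 and 3179 against 5061. Mitochondrial messenger RNA was thus 0.582, 0.877 and 0.628 times its level in the low-mitochondrial barcodes, while mt-Rnr2 was 7.86, 5.88 and 5.48 times higher. These values use the measure that chose the barcodes and are given without a test.

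Drop-seq primes cDNA on runs of A, and the sequence of mt-Rnr2 is shown for that reason. The gene lies at chrM:1094-2675 on the plus strand (GRCm38, GENCODE M21), is 1582 bases long and 38.2% A, and holds 9 runs of 5 or more A. The window around its longest internal run and the last 60 bases of the gene are given 5′ to 3′ below, with runs of 5 or more A in capitals. The first window is chrM:1463-1519 and starts at base 370 of the gene, the second is chrM:2616-2675 and holds no such run.
mt-Rnr2, longest run of A: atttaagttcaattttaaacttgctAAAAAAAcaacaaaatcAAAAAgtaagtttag
mt-Rnr2, 3′ end: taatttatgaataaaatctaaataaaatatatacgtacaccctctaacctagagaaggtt
Where the captured molecules were primed was not tested, since the tables hold no read positions.

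High-mitochondrial barcodes carried far fewer nuclear-coded UMIs. The median was 781 nuclear-coded UMIs in naive 2, 1012 in heterozygous and 931 in null, against 2800, 3621 and 3037.5 in the low-mitochondrial barcodes, so the low-mitochondrial medians were 3.59, 3.58 and 3.26 times higher. The median count of mitochondrial UMIs differed much less, at 1.40, 1.36 and 1.36 times higher in the high-mitochondrial barcodes. Nearly every gene was therefore represented by fewer molecules per barcode, whatever its CPM did. The median gene had 0.238, 0.278 and 0.307 times as many UMIs per barcode, and 61, 42 and 127 of the 8870 tested genes had more. mt-Rnr2 itself had 1.63, 1.47 and 1.5 times more UMIs per barcode, at 227 against 139, 333 against 226 and 278 against 185. A higher CPM in what follows is therefore a larger share of a smaller total. Fewer cells of a type and less RNA per cell cannot be told apart from summed UMIs.

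Only 4 tested genes had more UMIs per barcode in the high-mitochondrial barcodes of all 3 libraries, namely Gm20594, Ccdc18, Angptl2 and Col18a1, chosen here after their values were seen. Gm20594 had the largest fitted difference of all called genes. It held 41 UMIs in high-mitochondrial against 3 in low-mitochondrial barcodes of naive 2, 24 against 4 in heterozygous and 38 against 3 in null (log2 difference 3.405 ± 0.38 SE, edgeR adjusted p = 3.45e-05). Gm20594 is a nuclear gene at chr6:79817916-79818364, and 157 of the 449 bases of its transcript lie in stretches of 25 or more bases identical to mt-Rnr2 on the same strand. Among the annotated transcripts it was the only one outside mt-Rnr2 with 100 or more such bases, so its UMIs and those of mt-Rnr2 may not have been told apart by the authors' counting. The other 3 genes had few UMIs: Ccdc18 had 12, 12 and 14 against 3, 3 and 2, Angptl2 had 26, 26 and 15 against 5, 8 and 0, and Col18a1 had 35, 26 and 11 against 8, 6 and 0.

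Most barcodes of both classes carried a microglial profile. By a rule on marker genes (13 microglial markers holding at least 1% of nuclear-coded UMIs and more than the markers of any other cell class), 98.1%, 98.0% and 99.4% of the high-mitochondrial barcodes passed as microglial in naive 2, heterozygous and null. The share was lower among low-mitochondrial barcodes, at 80.1%, 88.8% and 87.5%. The summed level of the 13 markers was 23412 CPM against 28295 in naive 2, 23969 against 31363 in heterozygous and 26998 against 31688 in null. Since the low-mitochondrial class was more mixed, several results below are also given for microglial barcodes alone. That rule caps the markers of other cells in each barcode, so it bears on those markers by construction. The summed profile of each class would itself pass the rule. The rule therefore does not tell a microglial cell from a droplet of RNA shared across the suspension.

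Across nuclear-coded genes the classes differed widely. Of 8870 genes tested, 2388 passed (26.9% called; edgeR quasi-likelihood with the library as a block, adjusted p under 0.05), with 1583 higher (17.8%) and 805 lower (9.08%) in the high-mitochondrial barcodes. The difference had the same sign in all 3 libraries for 2353 of the 2388. The balance between the directions depended on the scaling. The median gene was 0.18 higher on the log2 scale with library size alone and 0.01 higher with TMM factors, a shift of 0.16, so list medians below are to be read against the median gene. With TMM, 858 genes were higher (9.67%) and 1180 lower (13.3%), and 42.1% of calls were higher instead of 66.3%. With DESeq2 235 were higher (4.47%) and 532 lower (10.1%), so 30.6% of its calls were higher. All 858 TMM calls in the higher direction were among the 1583, and all 805 lower calls remained lower calls with TMM. The p-values measure how the within-library difference repeats over 3 libraries that also differ in genotype and in the presence of tumour.

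Transcript length went with the direction of the difference more closely than any other feature examined. Over 8805 genes with an annotated transcript (99.3%), the Spearman correlation of the fitted log2 difference was 0.59 with the length of the longest transcript, 0.57 with the exonic length, 0.45 with the genomic span, -0.03 with GC content and -0.08 with mean CPM, as a description across genes, which share libraries and depth and are not replicates. The length decile with the shortest transcripts (median 1001 bases) had a median difference of -0.51 and held 20 genes called higher against 384 called lower. The decile with the longest transcripts (median 8390 bases) had a median of 0.63 and held 471 called higher against 5 called lower. The medians rose at each step in between, and in each library taken alone. With TMM the outer values were -0.68 and 0.47.

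**Figure D2:**
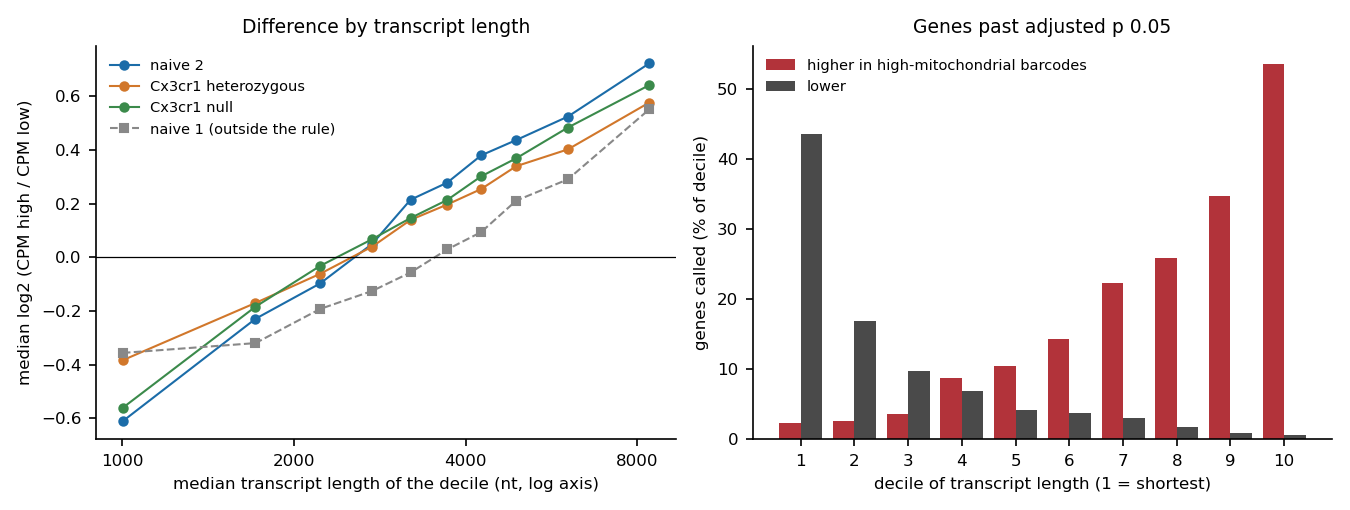
Left, median log2 ratio of CPM in high- over low-mitochondrial barcodes (vertical) for deciles of genes ordered by transcript length (horizontal, log axis, in bases) in naive 2, heterozygous and null, and in naive 1, which the choice of barcodes did not use; right, percent of each decile called higher or lower. All 4 lines rise, and the calls pass from 43.5% lower in the shortest decile to 53.5% higher in the longest.

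The same pattern was visible as a share of all UMIs. Genes of the longest quartile (transcripts of 4900 bases or more) held 25.3% of nuclear-coded UMIs in high-mitochondrial against 16.5% in low-mitochondrial barcodes of naive 2, 24.7% against 18.3% in heterozygous and 23.1% against 16.1% in null. Genes of the shortest quartile (2220 bases or fewer) held 28.7% against 41.4%, 29.9% against 39.2% and 31.9% against 42.4%. The change was graded with the mitochondrial share. In naive 2 the longest quartile held 15.5% under 5% mitochondrial UMIs, 19.2% at 5 to 10%, 24.0% at 10 to 20%, 26.3% at 20 to 30% and 28.1% at 30% and over, and the order was the same in heterozygous (17.3% to 26.6%) and null (14.6% to 25.7%). Depth moves with these classes, so both were compared among barcodes of 1000 to 2000 nuclear-coded UMIs, a window chosen after seeing the data. There the longest quartile held 25.9% against 18.4%, 25.7% against 18.8% and 23.8% against 17.8%. The window narrows the difference in depth without removing it: median nuclear-coded UMIs in it were 1183 against 1545, 1240 against 1387.5 and 1287 against 1429.

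The machinery of translation was split. Of 84 cytosolic ribosomal protein genes tested, 44 were lower and 2 higher (Rpl36 and Rpl10), with a median log2 difference of -0.45. Rplp1, a protein of the ribosomal stalk, stood at 1823 CPM in high-mitochondrial against 2855 in low-mitochondrial barcodes of naive 2, 2278 against 3411 in heterozygous and 2672 against 4043 in null (-0.61 ± 0.08, edgeR adjusted p = 9.37e-05). All 3 high-mitochondrial values lay under all 3 low-mitochondrial values. Rps9 and Rpl13a, subunit proteins, differed by -0.65 and -0.37 and were also called. Summed over the list, ribosomal protein transcripts fell with each step of the mitochondrial share, from 51526 to 28476 CPM in naive 2, 51347 to 31917 in heterozygous and 65886 to 34933 in null. Relative to other genes of the same length decile, however, the median ribosomal protein gene differed by only 0.00, and these genes have a median transcript of 1054 bases. Ribosomal protein genes have many processed copies in the genome, and their counts are uncertain to that extent.

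Translation factors moved in both directions, 6 higher and 7 lower of 25, where 17.8% of all tested genes were higher and 9.08% lower. With TMM, 3 were higher and 10 lower, so the balance depended on the scaling. Pabpc1, which binds the poly(A) tail, was higher at 2944 CPM against 1442 in naive 2, 2726 against 1499 in heterozygous and 2359 against 1377 in null (0.89 ± 0.09, edgeR adjusted p = 1.34e-05). Eef2, which moves the ribosome along the message, was higher at 1292 against 820, 1151 against 747 and 1231 against 780 (0.65). Eef1a1, which delivers aminoacyl-tRNA, did not pass, at -0.02. The list's median was -0.18, or -0.02 relative to genes of the same length decile, and it was 0.21 in the depth window.

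Nuclear-coded subunits of the respiratory chain were lower as a group. Of 71 tested, 52 were lower and 0 higher, the median being -0.61, or -0.26 relative to genes of the same length decile. Cox4i1, a subunit of cytochrome c oxidase, stood at 391 CPM against 840 in naive 2, 530 against 825 in heterozygous and 516 against 856 in null (-0.82 ± 0.11, edgeR adjusted p = 0.000137). The groups did not overlap. Cox8a, of the same complex, differed by -0.67, and Atp5b, a catalytic subunit of ATP synthase, by -0.41; both were called.

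Splicing and nuclear RNA-binding genes were higher. Of 25 tested, 16 were higher and 0 lower (10 and 0 with TMM, 6 and 0 with DESeq2), with a median of 0.45, or 0.11 relative to genes of the same length decile. Rbm25, a splicing regulator, rose from 641 to 1299 CPM in naive 2, from 982 to 1692 in heterozygous and from 757 to 1249 in null (0.84 ± 0.10, edgeR adjusted p = 4.04e-05). Rbm39 was 0.54 higher and was called, and Ddx5, an RNA helicase, was not, at 0.03. The noncoding RNA Malat1, which is retained in the nucleus, held 16543 CPM against 9083 in naive 2, 14219 against 11004 in heterozygous and 12853 against 6554 in null (0.74 ± 0.09, edgeR adjusted p = 7.07e-05). Its high-mitochondrial values lay above its low-mitochondrial values in all 3 libraries. Xist, the RNA of the inactive X chromosome, was 0.42 higher (adjusted p = 0.00585, and 0.0682 with TMM). Neat1, the scaffold of paraspeckles, was at 0.20 and did not pass. Relative to genes of the same length decile, Malat1 was at 0.10 and Neat1 at -0.43, and the median of the 4 nuclear noncoding RNAs tested was -0.05.

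**Figure D3:**
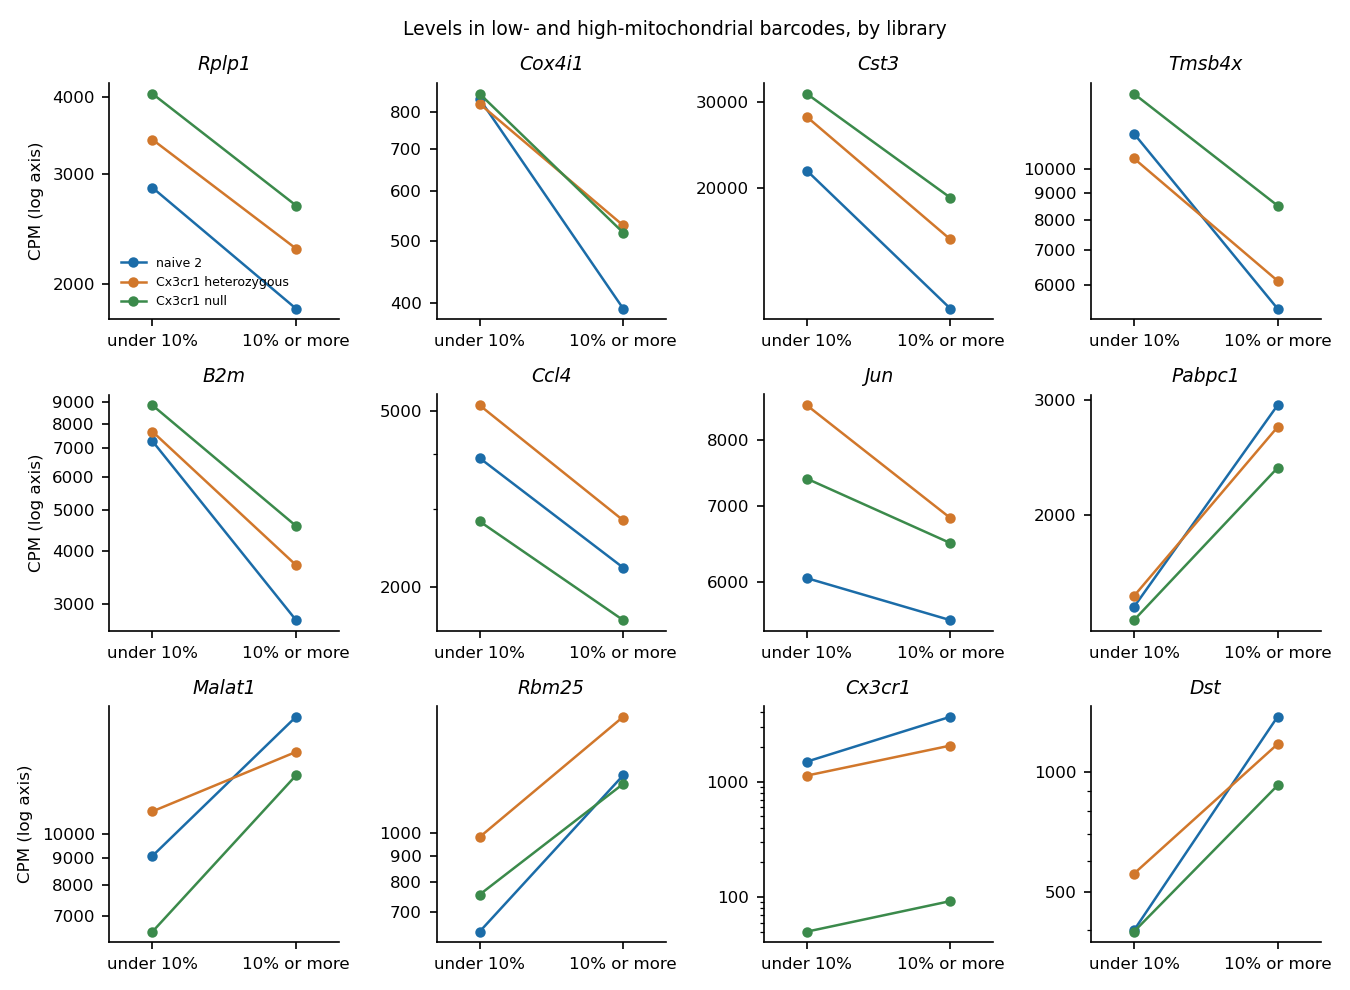
CPM of 12 genes (vertical, log axes that differ between panels) in barcodes under 10% and at 10% or more mitochondrial UMIs (horizontal), with 1 line for each of naive 2, heterozygous and null. Rplp1, Cox4i1, Cst3, Tmsb4x, B2m, Ccl4 and Jun fall in all 3 libraries, and Pabpc1, Malat1, Rbm25, Cx3cr1 and Dst rise in all 3.

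Microglial identity genes changed in both directions, more of them lower. Of 21 homeostatic genes tested, 9 were lower and 2 higher, with a median of -0.02, or -0.25 relative to genes of the same length decile. The list summed to 32956 against 44305 CPM in naive 2, 37447 against 52949 in heterozygous and 44433 against 57823 in null. Cst3, the secreted protease inhibitor cystatin C and the most abundant gene of the list, fell from 21710 to 11362 CPM in naive 2, from 27927 to 15719 in heterozygous and from 31116 to 19112 in null (-0.82 ± 0.06, edgeR adjusted p = 3.12e-06). Every high-mitochondrial value lay under every low-mitochondrial one. Sparc, a matrix protein made by microglia, was not called, at 2175 against 2784, 2530 against 2339 and 2915 against 2567. Cx3cr1, the fractalkine receptor at chr9:119901616-120069879, rose. It stood at 3654 CPM against 1492 in naive 2, 2056 against 1130 in heterozygous and 92.5 against 50.3 in null, where the gene is disrupted (1.05 ± 0.11, edgeR adjusted p = 2.69e-05). High-mitochondrial barcodes of the null library lay below the low-mitochondrial barcodes of both other libraries. Levels also differed between libraries of unmodified mice. Low-mitochondrial barcodes were at 4186 CPM in naive 1, 1492 in naive 2, 401 in metastasis 1 and 4207 in metastasis 2. Cx3cr1 levels across libraries are therefore given without a comparison of genotypes. In UMIs per barcode Cx3cr1 was lower, at 3.19 against 6.28, 2.42 against 5.31 and 0.0975 against 0.194.

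Transcripts of secreted and lysosomal proteins were lower. Of 26 tested, 18 were lower and 1 higher (Lpl, a lipase), with a median of -0.38, or -0.20 relative to genes of the same length decile. C1qb, a chain of the first complement component, stood at 4684 CPM against 6811 in naive 2, 4876 against 7098 in heterozygous and 5330 against 7190 in null (-0.50 ± 0.07, edgeR adjusted p = 0.000191). C1qc, its partner chain, differed by -0.55. Ctsd, the lysosomal protease cathepsin D, was an exception among the abundant members, at 6271 against 5120, 6249 against 5987 and 6735 against 5593 (0.21, adjusted p = 0.0508). The list summed to 55936 against 83595 CPM in naive 2, 61345 against 88982 in heterozygous and 73657 against 96042 in null. Genes of disease-associated microglia, which overlap this list, were lower for 9 and higher for 1 of 17 (median -0.45), and Apoe, a lipid carrier, differed by -0.66.

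Chemokines and inflammatory cytokines were lower for 8 and higher for 0 of 18 genes, with a median of -0.46. Ccl4, a chemokine that draws T cells and monocytes, stood at 2210 CPM against 3914 in naive 2, 2828 against 5153 in heterozygous and 1681 against 2813 in null (-0.81 ± 0.08, edgeR adjusted p = 1.33e-05). The values of the classes overlapped between libraries but not within them. Ccl3 differed by -0.55 and Tnf by -0.47, both called. In the depth window Ccl4 differed by -0.90 and Ccl3 by -0.95, both still past the threshold, and Tnf by -0.34, which was not.

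Stress genes did not move together. Of 26 immediate-early genes, 9 were lower and 1 higher (Klf4), with a median of -0.14; with TMM 16 were lower and 0 higher. Jun, the most abundant, stood at 5550 against 6045 CPM in naive 2, 6829 against 8588 in heterozygous and 6491 against 7399 in null (-0.21 ± 0.07, edgeR adjusted p = 0.0378), and the direction was lost against barcodes under 5% (0.06). Nfkbia, the inhibitor of NF-κB, and Fos were at -0.13 and -0.12 and were not called, but were called lower with TMM (edgeR adjusted p = 0.00793 and 0.0108). The immediate-early list was highest at 5 to 10% mitochondrial UMIs in each library. In naive 2 it summed to 42925 CPM under 5% mitochondrial UMIs, 58022 at 5 to 10% and 44546 at 10 to 20%, in heterozygous to 48740, 56605 and 48419, and in null to 37415, 51268 and 40851.

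Heat shock and chaperone genes were higher for 3 and lower for 3 of 23 (median -0.06). Hsp90ab1, a cytosolic chaperone, was 0.29 higher (adjusted p = 0.0261, and 0.333 with TMM), and the endoplasmic reticulum chaperones Hspa5 and Hsp90b1 lay at -0.02 and -0.06, uncalled. Apoptosis and p53 target genes were higher for 2 and lower for 2 of 24, with a median of 0.23 that became 0.07 with TMM and -0.17 in the depth window. Bcl2a1b, an anti-apoptotic member of the Bcl2 family with near-identical copies, differed by -0.99 at 346 against 757 CPM, 230 against 508 and 345 against 558, while Cdkn1a, a p53 target, was at 0.07 and Txnip, a thioredoxin inhibitor, at -0.03, both uncalled. Genes of the integrated stress and unfolded protein response were higher for 1 and lower for 1 of 14. Their median was 0.05, or -0.11 with TMM, and Ppp1r15a, a phosphatase subunit of that response, was called lower at -0.50, and Atf4, its transcription factor, was uncalled at -0.19 (edgeR adjusted p = 0.229, and 0.0309 with TMM). None of these 3 lists (heat shock, apoptosis and integrated stress) held a share of called members above the 26.9% of all genes.

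Genes of the actin cytoskeleton were lower for 14 and higher for 2 of 24, with a median of -0.35. Tmsb4x, which binds actin monomers, stood at 5417 CPM against 11701 in naive 2, 6124 against 10491 in heterozygous and 8525 against 13942 in null (-0.86 ± 0.08, edgeR adjusted p = 8.64e-06). Actb was at -0.25 and Arpc2, a part of the branching complex, at -0.31, both called. In microglial barcodes alone Actb was not called (-0.18, edgeR adjusted p = 0.0683). Fth1, the ferritin heavy chain, differed by -0.53 (edgeR adjusted p = 0.000227) and was the only one of 6 iron genes called.

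**Figure D4:**
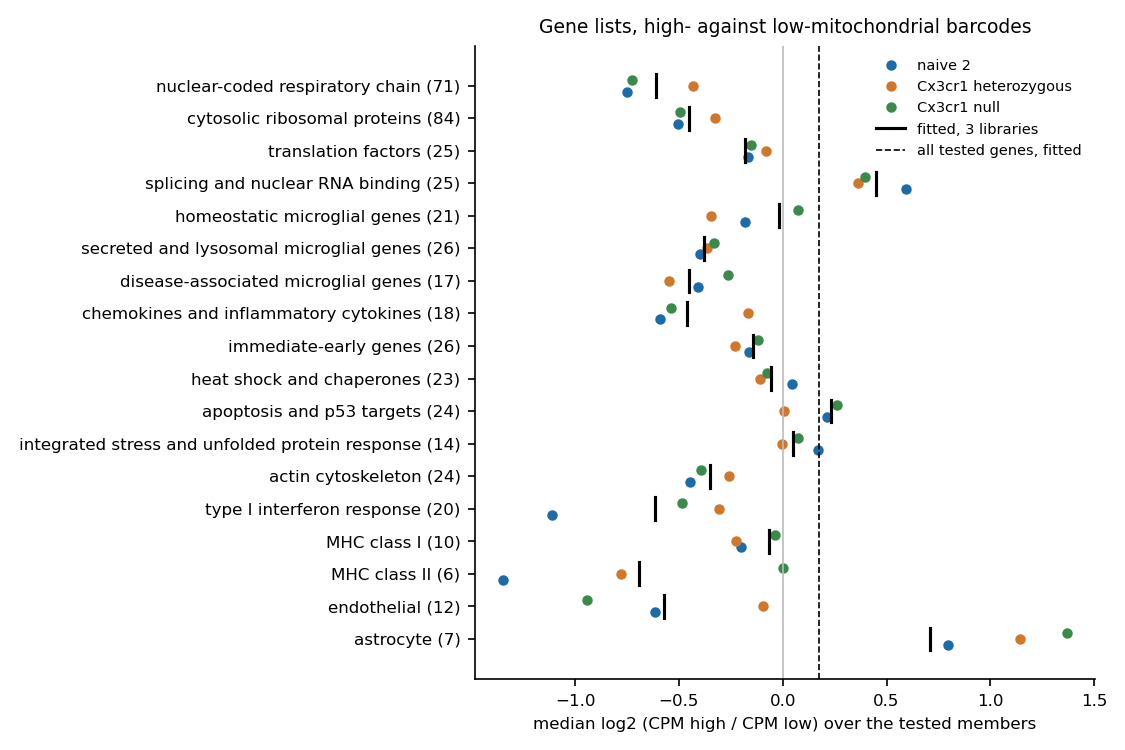
Median log2 ratio of CPM in high- over low-mitochondrial barcodes (horizontal) for 18 gene lists with the number of members tested in brackets; points are the 3 libraries, the vertical tick is the median of the fitted differences and the dashed line is the median of all tested genes at 0.18. Splicing and astrocyte genes lie to its right in every library, and respiratory chain and ribosomal protein genes to its left.

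Type I interferon response genes were lower over all barcodes, and this depended on which barcodes were compared. Of 20 type I interferon genes, 11 were lower and 0 higher, with a median of -0.62. Ifitm3, an antiviral membrane protein, stood at 366 against 1427 CPM in naive 2, 334 against 618 in heterozygous and 417 against 1075 in null (-1.40 ± 0.15, edgeR adjusted p = 2.74e-05), and Ifi27l2a differed by -1.04. Ifitm3 was at -0.61 in microglial barcodes alone and still called. In the depth window the differences of Ifitm3 and Ifi27l2a were -0.07 and 0.29, and neither was called. The list's median was -0.12 in microglial barcodes alone, with 2 higher and 8 lower, and 0.21 in the depth window, with 0 of 12 called. The highest level lay under 5% mitochondrial UMIs. In naive 2 the list summed to 7185 CPM under 5% mitochondrial UMIs, 2216 at 5 to 10% and 2712 at 10 to 20%, in heterozygous to 3650, 2664 and 2509, and in null to 8504, 3372 and 3731. From the second to the third of these bins the level rose in naive 2 and null and fell in heterozygous, without a test.

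MHC class II genes were lower for 5 of 6 (median -0.69), a result that did not hold under other settings. Of the 6, 2 were lower with DESeq2, 2 in microglial barcodes alone and 0 in the depth window, where the median was 0.17. Cd74, the invariant chain, stood at 1420 against 3948 CPM in naive 2, 1649 against 2866 in heterozygous and 1832 against 1806 in null (-0.75 ± 0.18, edgeR adjusted p = 0.00534), and Cd74 was not called with DESeq2 (adjusted p = 0.139) or in microglial barcodes (-0.49, edgeR adjusted p = 0.0691). The list's sum differed by -1.39 in naive 2, -0.83 in heterozygous and -0.02 in null. MHC class I genes were lower for 3 and higher for 1 of 10, with a median of -0.07, and 6 were not called. B2m, their common light chain, fell from 7278 to 2748 CPM in naive 2, from 7665 to 3707 in heterozygous and from 8847 to 4587 in null (-1.13 ± 0.09, edgeR adjusted p = 3.12e-06), and it kept -1.11 in microglial barcodes and -0.96 in the depth window. The heavy chains H2-D1 and H2-K1, which share sequence with one another, differed by -0.35, which was called, and -0.07, which was not. B2m has a transcript of 860 bases and H2-K1 one of 1874, and whether length bears on this pair was not tested.

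The largest differences were taken from both directions. By the rule used (the 12 largest in each direction among called genes of 50 CPM or more with the same sign in all 3 libraries), the higher genes included Ascc3, Myh11, Enpp2, Ccnd2, Gm14023, Sik2, Arnt, Dst, Utrn, Xrn1 and Scaper, between 1.34 and 1.65. Enpp2 was uneven between libraries, at 120 against 116 CPM in naive 2, 472 against 67.8 in heterozygous and 113 against 43.8 in null. In naive 2 a single barcode held 64.8% of the 88 low-mitochondrial Enpp2 UMIs, and without it the low-mitochondrial level was 40.9 CPM. A single barcode held 37.1% of the high-mitochondrial Enpp2 UMIs in heterozygous (298 CPM without it). Enpp2 was not called with DESeq2 (adjusted p = 0.267) or in the depth window (0.34, edgeR adjusted p = 0.603). Dst, a giant linker of cytoskeletal filaments with a transcript of 23279 bases, held 1381 CPM against 400 in naive 2, 1178 against 556 in heterozygous and 927 against 397 in null (1.36 ± 0.12, edgeR adjusted p = 8.64e-06). Ascc3, a helicase subunit with 7760 bases, held 158 against 51.2, 92.1 against 33.9 and 93.6 against 22.7. The lower genes were Pglyrp1, Rgcc, Ctla2a, Chi3l3, Ly6c2, Wfdc17, Ifitm3, BC028528, Ifitm2, Cldn5, Car4 and Apoc2, between -2.66 and -1.30. Several of these mark other cells, such as Cldn5 of endothelial tight junctions and Ly6c2 of monocytes. In naive 2, 5 barcodes held 92.4% of the low-mitochondrial UMIs of Pglyrp1, 84.5% of those of Rgcc, 89.1% of those of Cldn5 and 95.2% of those of Chi3l3. In microglial barcodes alone Rgcc was at -0.10 (edgeR adjusted p = 0.891) and Chi3l3 at -0.73 (0.0527), neither called. Ctla2a held 127 UMIs in the low-mitochondrial barcodes of null, of which 80.3% lay in 1 barcode, and its difference was -1.90 over all barcodes and 1.89 in microglial barcodes alone.

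Markers of other cell types were counted in both classes, and their part in the results above was examined only by restricting both classes to microglial barcodes. That restriction caps these markers in each barcode and leaves out a larger share of the low-mitochondrial class. Values of these markers in microglial barcodes alone therefore follow in part from the selection and test nothing about them. Endothelial markers were lower for 7 and higher for 0 of 12 (median -0.57), at 1707 against 2817 CPM in naive 2, 1377 against 1467 in heterozygous and 848 against 1686 in null. In microglial barcodes alone 9 of 11 were higher and 0 lower, with a median of 1.89. Monocyte markers were lower for 3 and higher for 0 of 9 (median -0.67, or 0.01 in microglial barcodes). Astrocyte markers were higher for 4 and lower for 0 of 7 (median 0.71), among them Slc1a3 at 0.71, while Sparcl1 was not called at -0.16; with DESeq2, 2 of 7 were called and Slc1a3 was not (adjusted p = 0.103), and in microglial barcodes alone all 7 were higher (median 1.95). Choroid plexus markers were higher for both genes tested of 10. Ttr, the transthyretin carrier made by the choroid plexus, held 948 CPM against 1214 in naive 2, 4513 against 943 in heterozygous and 1877 against 407 in null (1.41 ± 0.34, edgeR adjusted p = 0.00615). Ttr was not called with DESeq2 (adjusted p = 0.296) or in thinned barcodes (0.91, edgeR adjusted p = 0.131), and neither choroid plexus gene was called with DESeq2. It had at least 1 UMI in 47.6%, 94.8% and 82.1% of high-mitochondrial and in 39.2%, 86.5% and 71.9% of low-mitochondrial barcodes, although the former were less deeply sampled. In naive 2 a single low-mitochondrial barcode held 85.6% of the 925 low-mitochondrial Ttr UMIs, and without it the low-mitochondrial level was 175 CPM and under the high-mitochondrial level, as in the other libraries. In heterozygous 1 high-mitochondrial barcode held 18.6% of the UMIs, and without it the level was 3691.

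Further lists held few tested members. Hbb-bs, a haemoglobin chain of red cells, was 1.67 higher, Gzmb, a granule protease of NK cells and T cells, 2.41 higher with 20 UMIs against 4, 11 against 4 and 59 against 7, and Esx1, the only carcinoma marker tested of 9, 1.74 higher, with 31 UMIs against 6 in naive 2, 37 against 18 in heterozygous and 14 against 5 in null. Esx1 was therefore also counted in the library labelled naive. Neuronal markers had 0 of 11 genes tested. Mural markers were higher for 2 and lower for 1 of 9, oligodendrocyte markers higher for 2 and lower for 0 of 6, and border macrophage markers higher for 2 and lower for 1 of 5. B cell and dendritic markers had 0 called of 3 each, and proliferation genes were higher for 2 and lower for 1 of 8. Histone and chromatin genes were higher for 1 and lower for 3 of 13, small nucleolar RNA host genes higher for 1 and lower for 1 of 6, glycolysis genes higher for 2 and lower for 1 of 11, and the 1 gene that overlaps ribosomal RNA was uncalled. Neutrophil markers, 2 higher of 5 tested, differed between libraries and are described in the closing section. Over all tested genes 17.8% were higher and 9.08% lower, so these small counts are not read as results about the lists.

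High-mitochondrial barcodes resembled one another more than low-mitochondrial barcodes did. The low-mitochondrial class was also more mixed in cell type by the marker rule, and the spread was not computed in microglial barcodes alone. Each barcode was thinned to 400 nuclear-coded UMIs, which kept all barcodes of both classes, and the variance of a list's UMIs between barcodes was divided by its mean. Random sampling of 1 common profile gives a ratio near 1 for a list that holds a small share of the RNA. Over lists with a mean of 0.5 UMIs or more, the median ratio was 1.21, 1.19 and 1.15 in high-mitochondrial barcodes of naive 2, heterozygous and null, against 3.37, 2.32 and 2.45 in low-mitochondrial barcodes. It was lower in the high-mitochondrial class for 20 of 23, 21 of 23 and 20 of 22 lists. MHC class II genes show what this means. They were absent from 20.2%, 16.1% and 11.9% of thinned high-mitochondrial barcodes and from 52.5%, 44.2% and 31.9% of low-mitochondrial ones, while their variance ratio was 1.18, 1.64 and 1.36 against 23.8, 19.8 and 10.4. At equal depth more genes were detected in high-mitochondrial barcodes, 334 ± 9.41 (SD over barcodes), 337 ± 9.55 and 331 ± 9.34 against 313 ± 18.8, 318 ± 15.1 and 316 ± 15.02. Unthinned, the medians ran the other way, at 591, 735 and 665 genes against 1506, 1859 and 1583.5. The minimum of 400 genes therefore lay nearer to the high-mitochondrial medians. Gene number helped to choose the barcodes, so the counts of detected genes and their SD may follow in part from that choice and test nothing.

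**Figure D5:**
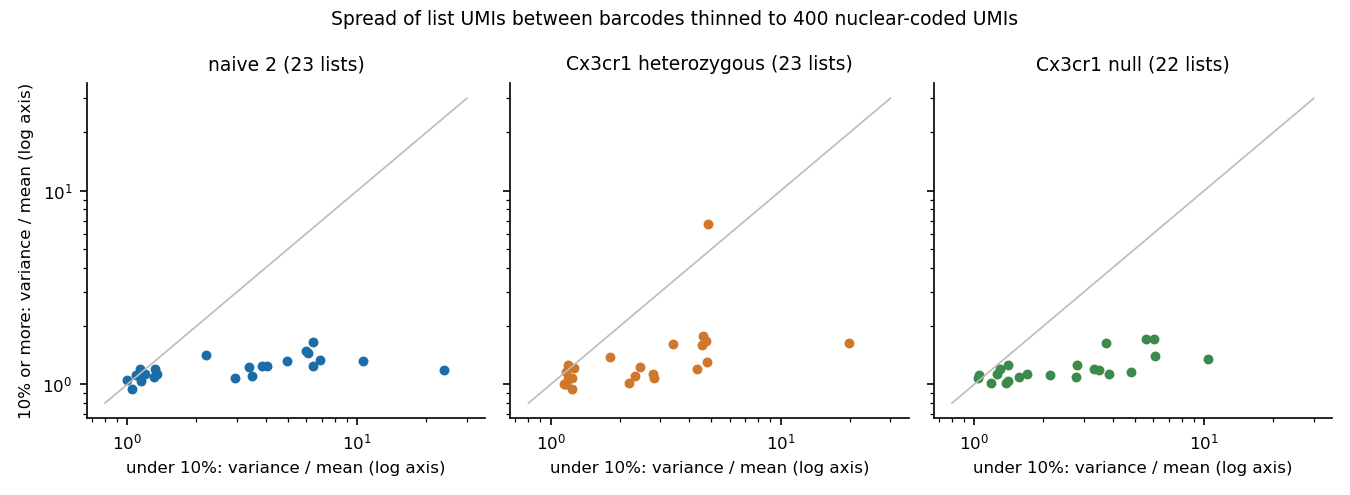
Variance over mean of the UMIs of each gene list between barcodes thinned to 400 nuclear-coded UMIs, in low-mitochondrial (horizontal) and high-mitochondrial barcodes (vertical), both on log axes, with the line of equality; each point is 1 of 23, 23 and 22 lists. Most points lie under the line, with high-mitochondrial medians of 1.21, 1.19 and 1.15.

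Naive 1, a library that the choice did not use, gave a further comparison. It came from 1 brain of the same unmodified strain, was read on another sequencer, and held 154 high- and 420 low-mitochondrial barcodes. Of the genes called over the 3 libraries with 20 or more UMIs in naive 1, 1009 of 1305 higher genes (77.3%) and 562 of 702 lower genes (80.1%) had the same direction there, where 50.1% and 49.9% of all 5909 genes did. The correlation of the log2 differences over those genes was 0.37 (Pearson) and 0.41 (Spearman), as a description across genes. Cx3cr1 was again higher, at 7641 CPM (exact Poisson 95% interval 7172 to 8132) against 4186 (4046 to 4330). Malat1 held 20257 against 14894 CPM, Pabpc1 3191 against 1979 and Ccl4 3206 against 7364. Cst3 differed less there, at 55254 against 58539, as did ribosomal protein genes, whose median was -0.06 over 80 genes, and Cox4i1 at 525 against 533. The respiratory chain list as a whole stayed lower, with a median of -0.38 over 71 genes, where the median gene was at 0.00. Among the lists that went the other way in naive 1, the actin median was 0.15 over 22 genes and the apoptosis median -0.34 over 16. Choroid plexus markers summed to a log2 ratio of -1.62. Metastasis 1 and metastasis 2 held 10 and 1 high-mitochondrial barcodes, under the minimum of 20, and were not compared.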

How the data were processed

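The authors deposited tables of UMI counts per gene and cell barcode, 1000 barcodes for each of 6 libraries, without normalization. STAR, Seurat and the genome build mm10 are named per the submitters' processing notes; for these, roles and versions were not given in the sources used here. The barcodes and gene lists were chosen with earlier results of these data known. Groups follow the labels, although the names of some deposited tables give another group.

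Raw counts of nuclear-coded genes were summed per library and barcode class and tested with edgeR 4.0.16 (R 4.3.3; quasi-likelihood, filterByExpr, library size without further factors, library as a block, Benjamini-Hochberg adjusted p under 0.05). The block pairs classes of the same library. Differences are log2 values with their standard error (SE). Replicates are libraries, and p-values measure only the spread between them. TMM factors and DESeq2 1.42.0 were alternatives.

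Named genes were the 12 largest changes in each direction of 50 CPM or more with the same sign in 3 libraries, the 3 most abundant members of each list, and Cx3cr1; some of these are not reported here. Others are described as list members or as chosen after their values were seen. There were 22 gene lists and 16 marker lists. Transcript features came from GENCODE M21 on GRCm38. Genes with near-identical copies (ribosomal proteins, H2, Ifitm, Ly6c and haemoglobin genes) are uncertain, because the authors' counting could split or merge them. Doublets were kept; an alternative left out the top 5% of Scrublet scores per library (scanpy 1.11.5). Total depth of the 3 libraries was 1622472, 2376501 and 1764092 UMIs. Naive 2 and null had 1 barcode sequence in common, not high-mitochondrial in both, and the other pairs had 0. Intervals cover counting error only.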

Additional observations from a re-analysis of the deposited data

Results flagged for a closer look

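For 6 lists the summed level differed between high- and low-mitochondrial barcodes in opposite directions in different libraries. Whether the libraries differ was not tested, since each condition has 1 library. Values are log2 ratios of CPM, high over low, in the order naive 2, heterozygous and null. Neutrophil markers were at 0.53, 1.47 and -1.80. In null 1 low-mitochondrial barcode held 95.9% of the 458 low-mitochondrial S100a8 UMIs, and without it S100a8 stood at 31.0 CPM there instead of 743. S100a9 had 96.2% of its 522 UMIs in 1 barcode and stood at 32.7 instead of 846 CPM without it. Choroid plexus or ependymal markers were at -0.30, 2.29 and 2.14, and the value of naive 2 holds the single barcode with most of its low-mitochondrial Ttr UMIs. Dendritic cell markers were at -0.50, 0.35 and 0.38. Proliferation genes were at 0.47, 0.48 and -0.30. Heat shock and chaperone genes were at 0.15, 0.069 and -0.064. Histone and chromatin genes were at 0.095, -0.0036 and -0.090, the middle value with a counting interval from -0.07 to 0.06.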

How the results depend on the processing

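Over the alternatives, 51 of 63 recomputed counts stayed within 1.5 times the reported count, and 12 did not. The 1583 higher and 805 lower genes became 858 higher with TMM, and 235 and 532 with DESeq2. Without the replicate block, that is with the library term dropped, they were 536 and 266. With the high class starting at 30% they were 210 and 169. With barcodes thinned to 400 UMIs they were 123 and 108. At 1000 to 2000 nuclear-coded UMIs in both classes, an alternative chosen after seeing the data, they were 130 and 111. The last 3 settings hold fewer UMIs and fewer tested genes. Leaving out 1 library gave 1216 to 1394 higher and 635 to 800 lower genes. Of 29 lists with 5 or more tested members, 23 had a median under that of all genes, and 15 in that depth window.

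In the depth window the list medians changed sign for translation factors (0.21), apoptosis (-0.17), interferon response (0.21), MHC class II (0.17), monocyte (0.32) and endothelial markers (0.35), as did the values of Ifi27l2a (0.29), Cd74 (0.18), H2-Ab1 (0.16), Plac8 (0.22), S100a8 (3.15), Ly6c1 (0.17) and Pcna (0.47). In microglial barcodes alone they changed for monocyte (0.015) and endothelial markers (1.89), and for Ctla2a (1.89), Cldn5 (2.31), Car4 (1.81), S100a9 (1.29), S100a8 (1.46), Bsg (0.21), Ly6c1 (1.56), Vtn (1.84) and Sparcl1 (1.95). Against barcodes under 5% they changed for Jun (0.059), S100a9 (1.54) and S100a8 (1.60), and without the null library for S100a9 (1.41) and S100a8 (1.55), which were at -1.77 and -1.62 without the heterozygous library. Thinning changed the sign for monocyte markers (0.042) and Mrc1 (-0.0100), and starting at 30% that of Utrn (-0.11). For the microglial alternative, the rule itself caps markers of other cells; for the rest, the cause was not tested. Of 2494 values of named genes, 2184 kept direction and side of the threshold, 245 lost the call, 42 gained it and 23 reversed.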
